A study of Caenorhabditis elegans with 2 samples.

Results

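The ASE neurons are a left/right pair of taste neurons in the head of Caenorhabditis elegans. The left cell (ASEL) and the right cell (ASER) sense different salts and express different receptor genes. The 9 genes described here are regulators of that asymmetry: che-1, lsy-2, lsy-27, cog-1, die-1, lim-6, fozi-1, unc-37 and lsy-22. They were chosen by name, and they are 9 of the 19971 protein-coding genes on the nuclear chromosomes in the RefSeq annotation of assembly WBcel235. One of them, lsy-27, encodes the protein that was precipitated. Every region with its summit between 5000 bp upstream of a gene's annotated 5′ end and its 3′ end was assigned to that gene. The 9 windows covered 103 kb on 5 chromosomes.

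The regions came from chromatin immunoprecipitation followed by sequencing (ChIP-seq) in strain OP401, a transgenic line that carries LSY-27 with GFP and FLAG at its C-terminus. The 2 biological replicates, numbered 2 and 3, form a single group of young adult hermaphrodites of unknown age, and no untagged or other group was analysed here. The description states that an anti-GFP antibody was used, while the antibody label names lsy-27. Chromatin was taken from whole animals and sheared by sonication, so binding in the ASE neurons cannot be told apart from binding in all other cells. The labels call the strain an insertion targeting lsy-27, and no source used here gives the promoter that drives the tagged copy.

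In the known pathway, CHE-1 is a C2H2 zinc finger protein that switches on the genes shared by both ASE neurons. Asymmetry is then set by a loop of mutual repression. The zinc finger protein DIE-1 and the microRNA lsy-6 act on the ASEL side, and the homeodomain protein COG-1, a target of lsy-6, acts on the ASER side. The Groucho corepressor UNC-37 and the Groucho-like protein LSY-22 act as cofactors of repression. The zinc finger proteins LSY-2 and LSY-27 were found in genetic screens for worms that lose the asymmetry. LIM-6, a LIM homeodomain protein, and FOZI-1, a zinc finger protein, act downstream in ASEL and ASER, respectively.

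The DNA under selected summits of 4 transcription factor genes, cog-1 and die-1 of the loop and lim-6 and fozi-1 downstream of it, is shown first. Each is 100 bp of the RefSeq genome (WBcel235, the same assembly as ce11), centred on a pooled summit and read 5′ to 3′ on the plus strand. Capitals mark GAAACC or GAAGCC, or the reverse complement GGTTTC or GGCTTC, the core of the motif that CHE-1 recognises in ASE-expressed genes. Both forms were searched on both strands, and no match of one form can share letters with a match of another. The lim-6 window (chrX:1072324-1072423) and the last of the printed fozi-1 windows (chrIII:9286845-9286944) hold the motif. The windows of cog-1 (chrII:14905972-14906071) and die-1 (chrII:10065581-10065680) and that of the strongest fozi-1 region (chrIII:9289955-9290054) do not. The motif counts over all windows, with the share over all nuclear summits, are given further below.
lim-6, 1534 bp upstream: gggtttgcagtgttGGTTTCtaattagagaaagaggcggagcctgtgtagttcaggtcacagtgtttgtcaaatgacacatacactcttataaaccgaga
cog-1, intron: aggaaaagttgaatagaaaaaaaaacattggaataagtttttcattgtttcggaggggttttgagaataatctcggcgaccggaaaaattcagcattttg
die-1, intron: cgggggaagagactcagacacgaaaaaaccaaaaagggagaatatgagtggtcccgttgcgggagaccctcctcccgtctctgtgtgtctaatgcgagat
fozi-1, strongest region, intron: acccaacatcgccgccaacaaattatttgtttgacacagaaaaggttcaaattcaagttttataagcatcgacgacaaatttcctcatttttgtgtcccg
fozi-1, region with the motif, intron: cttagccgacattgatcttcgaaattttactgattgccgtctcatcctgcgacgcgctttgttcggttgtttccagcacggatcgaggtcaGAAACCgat

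The regulators had relaxed regions at most genes and none among the strongest. The thresholded list, the authors' set of regions that reproduce between replicates, held 342 regions, 318 of them on nuclear chromosomes. It had none in the window of any of the 9 genes, and 2.96% of all protein-coding genes had one. The relaxed lists also keep regions near background. In the relaxed list called on the pooled replicates, which holds 30000 regions, 7 of the 9 genes had at least 1 region, against 84.5% of all protein-coding genes. Only lsy-22 had a pooled region that a region of each replicate's own list overlapped, against 29.2% of all protein-coding genes. With only 9 genes, neither count is read as a difference from that background.

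The 7 genes together held 21 pooled regions, which is 2.05 per 10 kb of window, against 2.99 per 10 kb over the nuclear genome. The signal of a region is the authors' score, whose scaling no source used here states, and is read only as an order within a list. The 21 signals ran from 3.11 to 10.2 with a median of 4.61, and the median over all 29975 nuclear regions was 4.78, with 10 of the 21 above it. All 342 thresholded regions have the summit and signal of a pooled region (within 0.001), and the weakest nuclear one had a signal of 22.1, above the strongest region at a regulator. The deposited −log10 q-value reached 2.37 at the regulators, while every thresholded region had 3.47. By place, 12 of the 21 summits lay in introns, 6 upstream of the gene and 3 in coding exons. Introns made up 39.9% of the window bases, upstream DNA 43.9% and coding exons 11.1%.

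Both replicates held 2 of the 21 regions, against 15.6% of all nuclear pooled regions. Replicate 2 overlapped 3 of the 21 and replicate 3 overlapped 12, against 28.0% and 66.3% of all nuclear pooled regions, and 8 of the 21 were in neither list, against 21.3%. The lists differ in length, with 12414 regions for replicate 2 and 29326 for replicate 3, and no source used here states the read depths. Counted from their own lists, replicate 2 had 9 regions at 4 of the genes and replicate 3 had 18 at 6 of them. Over all protein-coding genes, 60.7% had a replicate 2 region and 85.4% a replicate 3 region. Only 3 of those 9 replicate 2 regions overlapped a pooled region, against 64.1% for all nuclear regions of that list. For replicate 3 the number was 12 of 18, against 66.5%.

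**Figure D1:**
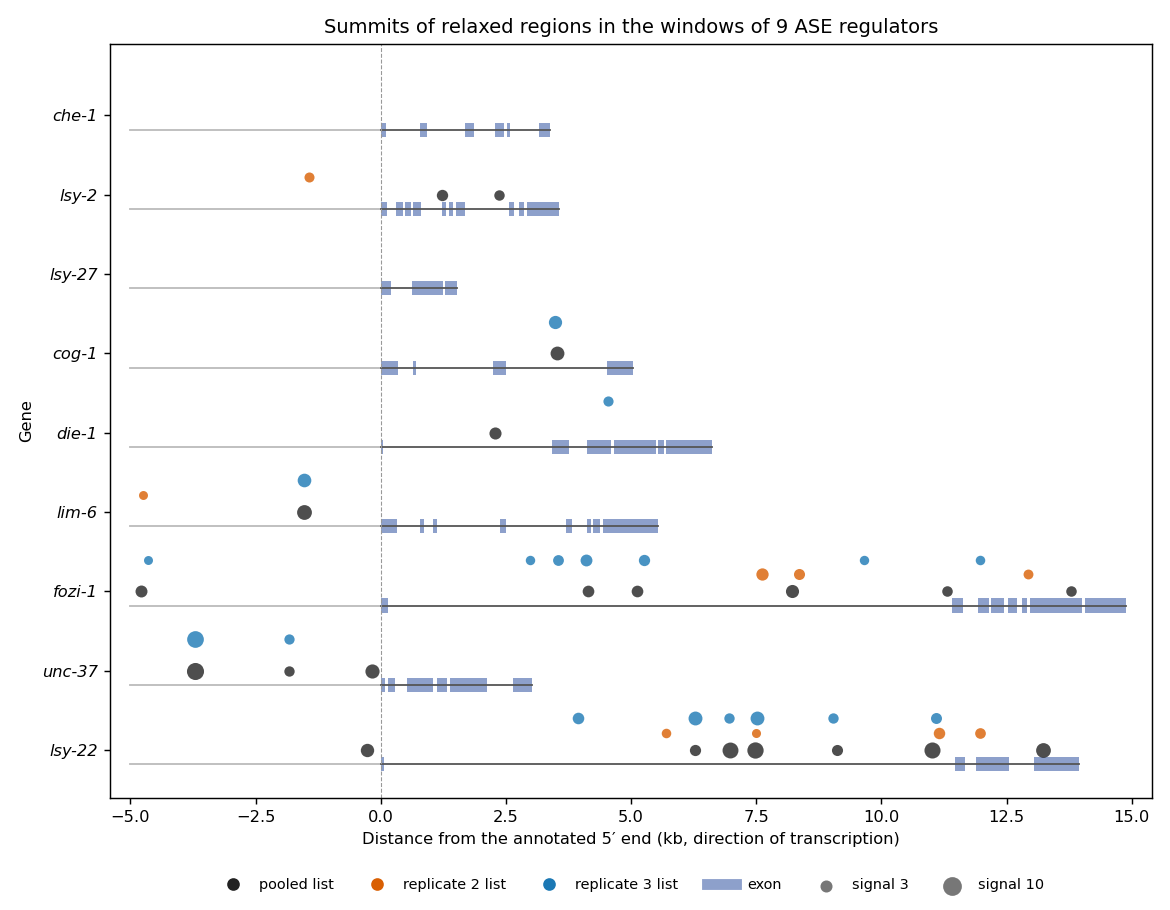
Summits of relaxed regions along the 9 regulator genes, drawn from 5 kb upstream to the 3′ end, with the distance from the annotated 5′ end in kb on the x axis and exons as blue boxes. Dot area grows with the signal, and colours separate the pooled list from the lists of replicates 2 and 3. The che-1 and lsy-27 windows are empty in all 3 lists, and only at lsy-22 do dots of both replicates lie at the same pooled summit.

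Of the 3 zinc finger genes that act on both sides or upstream of the loop, 2 had no region in any relaxed list. The selector gene che-1 (C55B7.12, chrI:6517529-6520918, minus strand, 3390 bp) had 0 pooled regions, 0 in replicate 2 and 0 in replicate 3. Among 2912 protein-coding genes within 20% of its length, 10.6% also had no pooled region (95% Clopper-Pearson interval 9.55 to 11.8%). The emptiness ended at the edge of the window. A pooled summit with a signal of 7.07 and rank 6257 lay 138 bp past the 3′ end of che-1, in an untranslated exon of the neighbouring gene glh-2, which encodes a germline RNA helicase, and no replicate's region overlapped it. A thresholded region with a signal of 24.8 lay 3.61 kb from che-1, with its summit 7 bp upstream of the 5′ end of glh-2. Upstream of che-1 the nearest pooled summit was 9602 bp away. Replicate 3 had a nearer upstream summit at chrI:6526242, just past the window, which ends at chrI:6525918. Within 20 kb on both sides che-1 had 13 pooled summits, which equals the median of 13 over all protein-coding genes.

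The gene of the precipitated protein, lsy-27 (F47H4.1, chrV:17348665-17350193, minus strand, 1529 bp), was also without a region in the pooled list and in both replicates. Among 3947 genes of like length, 20.3% had none (19.0 to 21.6%), so the empty window itself is a common state for a gene this short. The surroundings were less common. No pooled summit lay within 20 kb of lsy-27, which was the case for 77 genes or 0.386% of all protein-coding genes. Replicate 2 had 1 summit within 20 kb against a median of 5, with 6.37% of genes at or below, and replicate 3 had 1 against 12, with 0.541%. The nearest thresholded region was 601 kb away, against a median of 116 kb over all genes.

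The remaining gene of these 3, lsy-2 (F49H12.1, chrX:2089704-2093256, plus strand, 3553 bp), had 2 weak pooled regions. One lay in a coding exon, 1225 bp from the 5′ end, with a signal of 3.94 and rank 20695. The other lay in an intron at 2370 bp, with a signal of 3.19 and rank 27677. No replicate's region overlapped either one. Replicate 2 had a region of its own 1431 bp upstream, with a signal of 2.87 and rank 6872 of 12414, and replicate 3 had none in the window. Among 2782 genes of like length, 71.7% had at least as many pooled regions and 79.4% had one at least as strong.

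The 4 asymmetry genes of the loop and its output had 1 pooled region each, apart from the long gene fozi-1 with 6. At the homeobox gene cog-1 (R03C1.3, chrII:14902493-14907533, plus strand, 5041 bp) the single region, chrII:14905864-14906179, lay in an intron 3529 bp from the 5′ end. Its signal was 6.36 with rank 8177 in the pooled list and 5.71 with rank 5146 in replicate 3, and replicate 2 had no region in the window. Among 1982 genes of like length, 92.8% had at least 1 region and 55.9% had one at least as strong. The next pooled summit upstream lay outside the window, 5882 bp from the 5′ end, with a signal of 6.97.

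At die-1 (C18D1.1, chrII:10061302-10067917, minus strand, 6616 bp) the single region, chrII:10065473-10065788, lay in an intron 2286 bp from the 5′ end. It had a signal of 4.61 and rank 15958, and no replicate's region overlapped it. Its summit was 200 bp from the small nucleolar RNA gene C18D1.21. Replicate 3 had a different region, in a coding exon at 4532 bp, with a signal of 2.96 and rank 18777 of 29326. Among 1390 genes of like length, 95.5% had at least 1 pooled region and 81.2% had one at least as strong.

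At lim-6 (K03E6.1, chrX:1073908-1079452, plus strand, 5545 bp) the single pooled region, chrX:1072216-1072531, lay 1534 bp upstream. Its signal was 7.42 with rank 5543 in the pooled list and 6.13 with rank 4282 in replicate 3, with the summit at the same base. Replicate 2 did not hold it. Replicate 2 had a weak region 4754 bp upstream of lim-6, with a signal of 2.09 and rank 11753, and that summit was 25 bp upstream of another gene, mksr-1. Of 1768 genes of like length, 93.8% had at least 1 pooled region, and 44.4% had one at least as strong. Along with unc-37 and lsy-22, lim-6 was 1 of the 3 genes whose strongest region was above the median for its length.

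The zinc finger gene fozi-1 (K01B6.1, chrIII:9281781-9296668, plus strand, 14888 bp) had 6 pooled regions, which equals the median of 397 genes of like length. The strongest, chrIII:9289847-9290162, lay in an intron 8224 bp from the 5′ end with a signal of 5.58 and rank 11058. Replicate 2 held it with a signal of 3.68 and rank 4041, and replicate 3 did not. Of the other 5 regions, 3 were overlapped by replicate 3 alone and 2 by neither list. Their signals ran from 3.25 to 4.49. The replicates' own lists had 3 regions (replicate 2) and 7 regions (replicate 3) in the window, and none of these overlapped between the replicates. Among the genes of like length, 82.4% had a stronger or equal strongest region.

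The strongest regions of the set were at the corepressor genes. At unc-37 (W02D3.9, chrI:6742299-6745329, minus strand, 3031 bp) all 3 pooled regions lay upstream. The strongest, chrI:6748881-6749196, was 3710 bp upstream with a signal of 10.2 and rank 2453, the best rank at any of the 9 genes. Replicate 3 held it with a signal of 9.70 and rank 1210 and the same summit, and replicate 2 had no region in the window. That summit lay within a coding exon of another gene, fnci-1, so its assignment to unc-37 rests only on the 5000 bp window. A second region 1833 bp upstream, in an intron of fnci-1, had a signal of 3.11, and 3.04 (rank 18170) in replicate 3. The region nearest the 5′ end of unc-37, 177 bp upstream, had no other gene over it and a rank of 7203, and neither replicate's list held it. Among 3207 genes of like length, 46.5% had at least 3 regions and 20.7% had one at least as strong as the strongest.

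At lsy-22 (F27D4.2, chrI:7704564-7718516, minus strand, 13953 bp) there were 7 pooled regions, 4 in replicate 2 and 6 in replicate 3, more in the pooled list than at any other regulator. Of these 7, 5 lay in introns, 1 in a coding exon and 1 upstream. Both regions that the replicates share among the 9 genes were here. The first, chrI:7710876-7711191, lay in an intron 7482 bp from the 5′ end, with a signal of 9.17 and rank 3210. Its signal was 2.14 (rank 11232 of 12414) in replicate 2 and 6.37 (rank 3859 of 29326) in replicate 3, with summits 8 bp apart. It therefore stood near the bottom of the shorter list. The second, chrI:7707346-7707661, lay in an intron at 11012 bp with a signal of 8.89 and rank 3485. Its signal was 4.05 (rank 3243) in replicate 2 and 3.63 (rank 13733) in replicate 3, with summits 67 bp apart. Under each of 3 stricter rules, only the first of these regions was held by both. The rules were replicate lists at equal length, each replicate's summit within 100 bp of the pooled summit, and an overlap of 50% of the region. The second summit was also 480 bp upstream of F27D4.12, a short protein-coding gene annotated inside lsy-22.

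The other 5 lsy-22 regions were in replicate 3 or in neither list. Another intron region, at 6972 bp, had a pooled signal of 8.71 and 3.11 in replicate 3. The region 277 bp upstream of lsy-22 had a signal of 5.84, was in neither replicate, and lay 89 bp from the tRNA gene F27D4.t1. Among 470 genes of like length, 34.5% had at least 7 regions (30.2 to 39.0%) and 38.3% had one at least as strong. Summits were dense around lsy-22, with 23 within 20 kb, a count reached by 5.32% of all protein-coding genes. A stronger region, with a signal of 14.04 and rank 1073, lay just outside the window, 6311 bp upstream. Both replicates had a summit close to that of this region, at chrI:7724815 in replicate 2 and chrI:7724826 in replicate 3. In the lsy-22 window 81.6% of 32 bp words occur once in the genome, the lowest share of the 9, and in the interval between the summits at 277 bp upstream and 6282 bp inside the gene the share was 99.95%.

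Set against genes of like length, 2 of the 9 regulators, unc-37 and lsy-22, had more pooled regions than the median, fozi-1 had as many, and 6 had fewer. The 25th to 75th percentile of genes of like length included lsy-2, fozi-1, unc-37 and lsy-22, and che-1, lsy-27, cog-1, die-1 and lim-6 fell below it. For the strongest signal, cog-1, lim-6 and lsy-22 fell within that range, unc-37 lay above it and the other 5 below it. These positions moved with the list used. For a gene without a region, the share of like-length genes with a strongest region at least as strong is fixed at 100%. In the list of replicate 2 alone this applied to unc-37 and cog-1, whose pooled shares were 20.7 and 55.9%. For lim-6 the share went from 44.4% in the pooled list to 70.6% in that of replicate 2. It went from 82.4 to 33.0% for fozi-1 and from 79.4 to 45.4% for lsy-2. In the list of replicate 3 alone it was 11.4% for unc-37, while lsy-2 had no region. For unc-37 it was 30.0% with the window ended at the next gene and 32.3% with 2000 bp upstream. The window ended at the next gene leaves out the unc-37 regions over fnci-1. With that window 74.4% of like-length genes had at least as many regions as unc-37, against 46.5% with the full window. With a single group and 9 chosen genes, these positions are a description without a test.

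**Figure D2:**
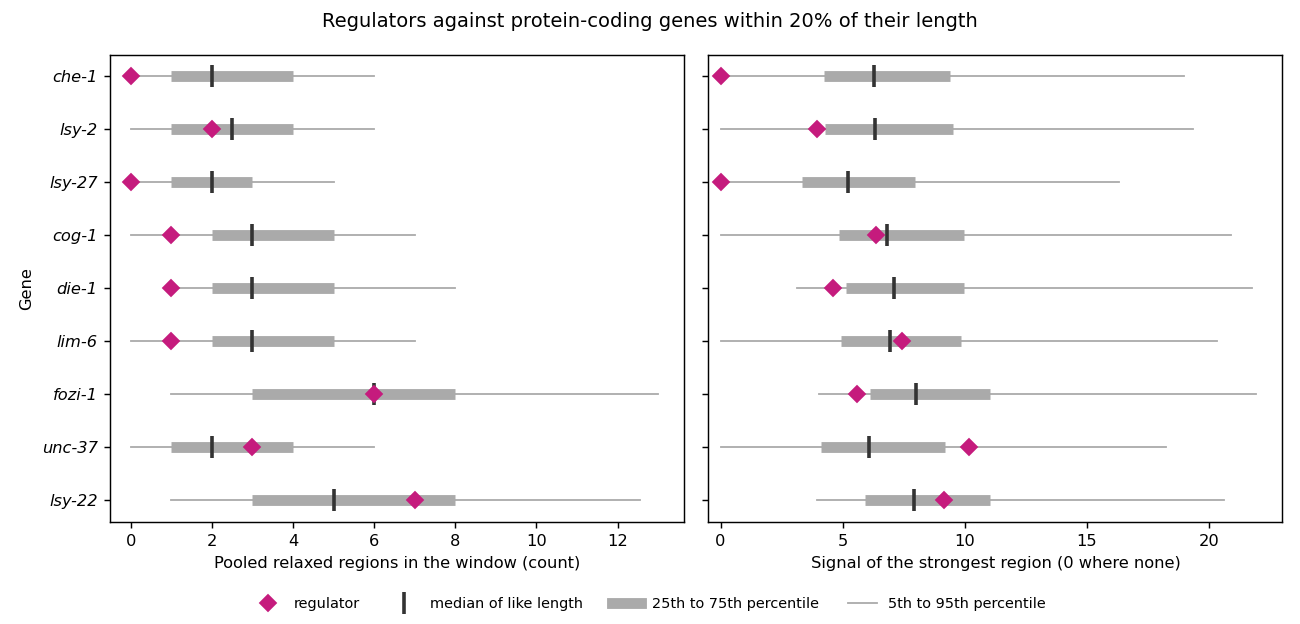
Each regulator (diamond) against protein-coding genes within 20% of its length, for the number of pooled relaxed regions in the window (left) and the signal of the strongest region, the authors' score (right, 0 where there is none). Black ticks are medians, thick bars the 25th to 75th and thin lines the 5th to 95th percentiles. On the right, only unc-37, at 10.2, lies above the thick bar.

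Searched in 100 bp around each of the 21 pooled summits, the CHE-1 motif was present in 3 windows, or 14.3%. They were the lim-6 region and the fozi-1 region printed with capitals above, and the unc-37 region 177 bp upstream, and all 3 had the GAAACC form. Over all 29975 nuclear pooled summits, 7.72% of windows of the same length had either form, 4.99% GAAACC and 2.90% GAAGCC. The median GC content was 38% in the regulators' windows and 36% over all. With 3 of 21 windows this is a description, and the letters alone do not show a binding site.

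The emptiness around lsy-27 extended well past its window. The pooled list had no summit between chrV:17319143 and chrV:17377613, a gap of 58.5 kb. That was the 6th longest of 29969 gaps between neighbouring nuclear summits, whose median was 2.01 kb. The gap held 11 whole protein-coding genes, including lsy-27, the F-box genes fbxa-134, fbxa-185, fbxa-188 and fbxa-189, the Skp1-related gene skr-5 and the chemoreceptor gene srg-44. Of the 32 bp words in this gap, 90.9% occur once in the genome, against 91.4% over the nuclear genome. In the 5 longer gaps the share was 4.55 to 60.4%.

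The replicates showed the same sparse stretch with some summits inside it. The summit nearest lsy-27 was at nearly the same place in both replicates. It lay 14.759 kb from the 5′ end along the chromosome in replicate 2 (signal 6.04) and 14.965 kb in replicate 3 (signal 2.94). The pooled list had no summit there. The gap around lsy-27 was 46.9 kb in replicate 2, where it ranked 87 of 12387, and 46.0 kb in replicate 3, where it ranked 7 of 29293. Within 100 kb of lsy-27 there were 7 pooled summits against a median of 60 over all genes, and 0.135% of genes had as few. Within 50 kb there were 4 pooled summits against 31, 4 against 12 in replicate 2 (2.90% of genes at or below) and 7 against 30 in replicate 3 (0.456%). Within 100 kb the counts were 5 against 25 in replicate 2 and 18 against 59 in replicate 3, with 0.300% and 0.335% of genes at or below them. These wider spans reach past the gap into repeated DNA. In 1 kb bins centred 34.5 to 43.5 kb from the 5′ end along the chromosome, at most 10.3% of 32 bp words occur once. In the bins at -64.5, -63.5, -60.5 and -59.5 kb the share was 0%. Whether this lowers the counts was not tested. For comparison, the pooled gap around che-1 was 13.1 kb and ranked 941.

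**Figure D3:**
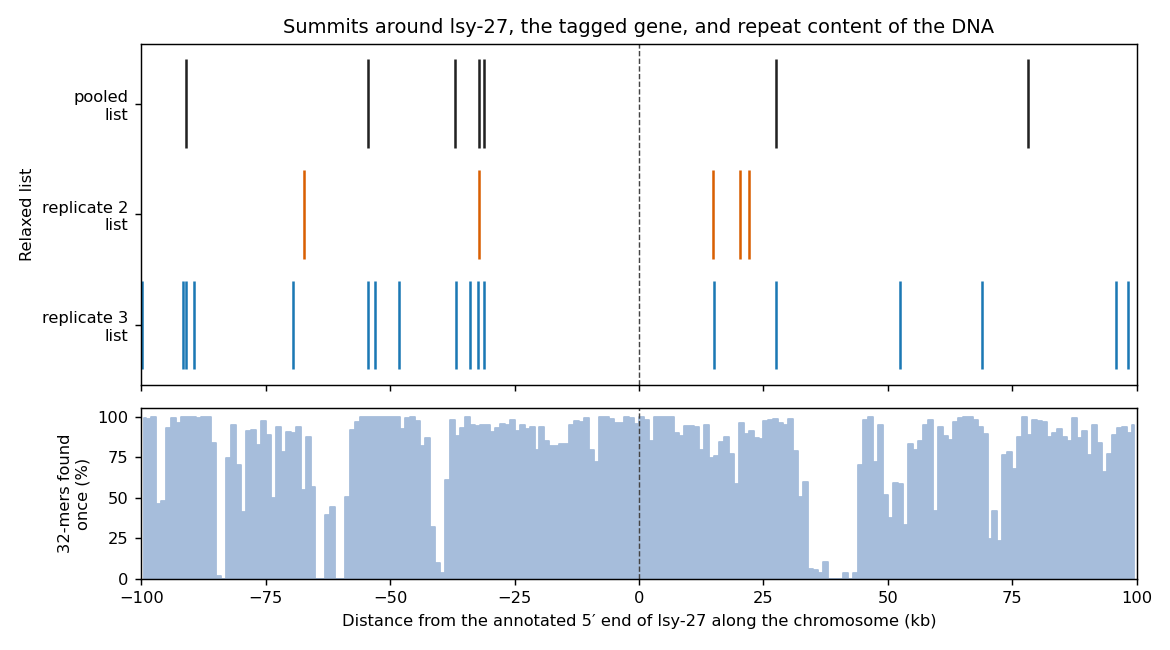
Summits of the 3 relaxed lists within 100 kb of the 5′ end of lsy-27 (top, 1 tick per summit), with the percent of 32 bp words in each 1 kb bin that occur once in the genome (bottom). The pooled list is empty for 58.5 kb around the gene, where 90.9% of the words occur once.

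Other genes of the ASE pathway were counted in the same windows, from lists that were put together with earlier results of these data known. Of 8 further regulators, all 8 had a pooled region, 5 had one in replicate 2, 8 in replicate 3, 4 had a region held by both replicates and none had a thresholded region. The shares over all protein-coding genes, in the same order, were 84.5, 60.7, 85.4, 29.2 and 2.96%. The 4 held by both were at tbx-38, lsy-12, lsy-13 and lin-49. LSY-12, a MYST-type histone acetyltransferase, LSY-13, an ING-family protein, and LIN-49, a bromodomain protein, are known as parts of one chromatin complex that acts in ASE asymmetry. The lsy-13 region lay 166 bp upstream with a signal of 18.6 and rank 544. Replicate 2 held it at 9.19 (rank 273) and replicate 3 at 10.4 (rank 968). It was stronger than every region at the 9 regulators. The lsy-12 region, in an intron, had a signal of 13.9 and rank 1101, with 5.27 in replicate 2 and 7.17 in replicate 3. The lin-49 region, in a coding exon, had 8.04, with 3.02 and 5.65. The proneural gene hlh-14 had 5.85, held by replicate 3 alone. The share of like-length genes with a region at least as strong was 3.83% for lsy-13 and 13.9% for lsy-12. It was 37.1% for lin-49 and 44.8% for hlh-14. The microRNA gene lsy-6 had 1 region, 2362 bp upstream, with a signal of 4.85 and 3.85 in replicate 3. That summit lay in an untranslated exon of another gene, kvs-2.

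Of 14 effector genes, which make the receptors, channels and peptides of the ASE neurons, 11 or 78.6% had a pooled region, against 84.5% of all protein-coding genes. There were 6 with a region in replicate 2, 10 in replicate 3, 1 held by both (gcy-22) and none in the thresholded list, against 60.7, 85.4, 29.2 and 2.96% of all protein-coding genes. The strongest was at gcy-4, a receptor guanylyl cyclase gene, with 12.1 and rank 1577, in an intron 8 bp from the tRNA gene ZK970.t2. Next were flp-6, a neuropeptide gene (10.2, intron), gcy-7, a guanylyl cyclase gene of ASEL (9.59, 3387 bp upstream in a coding exon of F52E1.14), and tax-4, a subunit of the cyclic nucleotide-gated channel (7.67, coding exon). Replicate 3 held these 4 regions, with signals from 5.18 to 10.04, and replicate 2 held none of them. No region was found at gcy-1, gcy-6 or hen-1. The median of the strongest signals was 5.81 for the 8 regulators and 5.77 for the 11 effectors with a region, and none of the 31 genes reached the thresholded list.

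**Figure D4:**
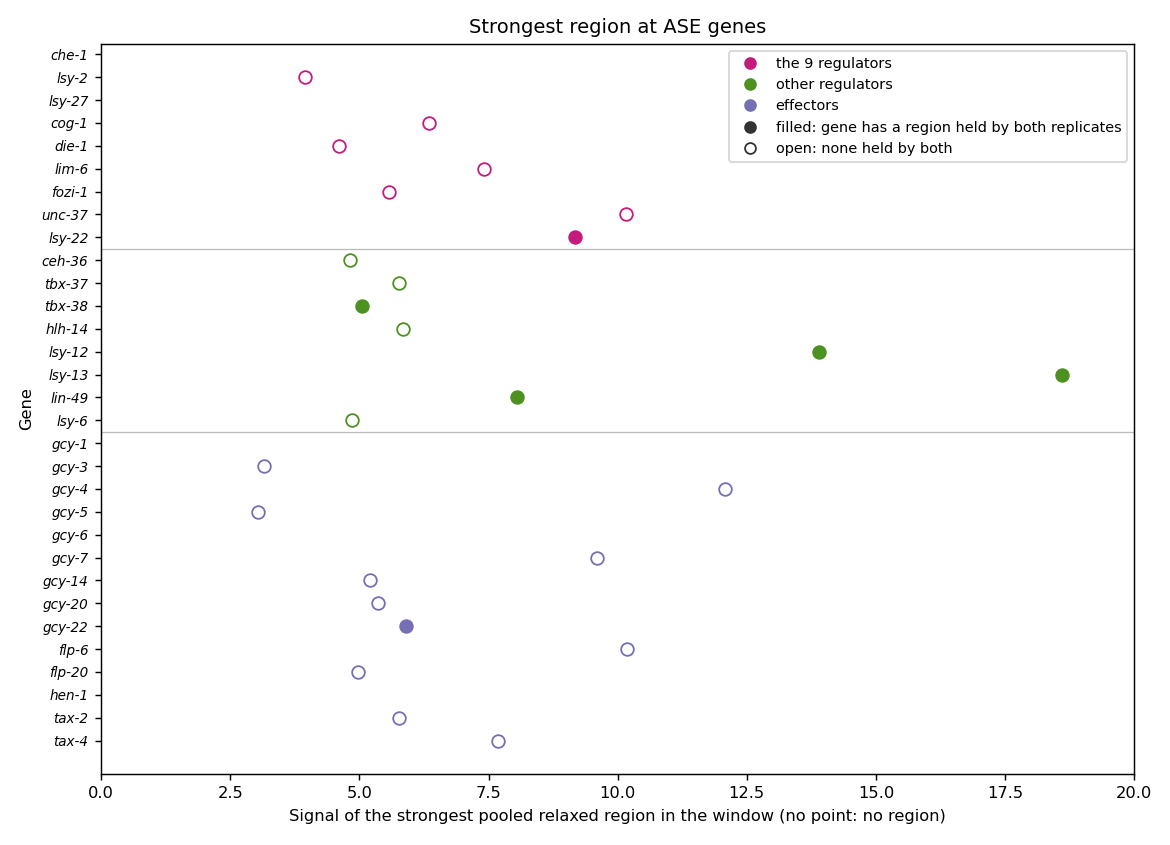
Signal (the authors' score) of the strongest pooled relaxed region in the window of each of the 9 regulators, the 8 other regulators and the 14 effectors. Filled points are genes with a region held by both replicates, open points genes with none, and genes without a point have no region. The 2 highest points, lsy-13 at 18.6 and lsy-12 at 13.9, are filled. Signals are not adjusted for gene length.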

How the data were processed

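ChIP-seq region lists in narrowPeak layout were used for 2 replicates of 1 group. Per the deposited text beside the lists, the authors called a relaxed list of regions and background for each replicate and for the pooled replicates, against a control not analysed here. They made a thresholded list by the irreproducible discovery rate method. The peak caller, aligner, settings and read depths are not given in the sources used here. No interval based on reads could be given. The deposited signal is the authors' score per region, compared only within a list, and the deposited −log10 q-value was only described. A pooled region is called held by a replicate when a region of that replicate's list overlaps it by at least 1 bp.

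The ce11 lists were set against the RefSeq genome and annotation of WBcel235. The ce10 lists were not used, since no annotation of that build was at hand. Ranks run from 1, the highest signal of a list. Genes of like length are protein-coding nuclear genes within 20% of a gene's length, and shares have exact Clopper-Pearson 95% intervals that cover counting error only and treat genes as independent. Neighbourhoods reach 20 kb on each side. Words of 32 bp were counted on both strands.

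The 9 genes and the lists of other ASE genes were chosen with earlier results of these data known, and no p-values were computed. All 9 genes were named, each with its strongest region and those held by both replicates. Of the other lists, the 4 genes with the strongest regions were named, and lsy-6, tbx-38, gcy-22 and the genes without a region were named after their values were seen, as were the genes of the gap at lsy-27. Alternatives were other windows, the stronger 50% of the pooled list, other overlap rules, other length ranges and each replicate's list alone. The assignment of summits was tested on simulated data, where all 200 planted genes were recovered. Tables were made with numpy 2.4.6, pandas 2.3.3 and scipy 1.17.1 under Python 3.11.15, and figures with matplotlib 3.10.9.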

Additional observations from a re-analysis of the deposited data

How the results depend on the processing

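Values are given for 8 summary results: the genes with a pooled region (7), with one held by both replicates (1), with a thresholded one (0), above the median of like length (2), all regions (21), the median over genes of the share of like-length genes with as many regions (92.8%) and with one as strong (79.4%), and the other ASE genes with a region (19 of 22). A gene without a region has both shares fixed at 100%, and those of che-1 and lsy-27 enter these medians. Of 55 recomputed values, 32 stayed within 1.5 times the count or within the interval of the share, as did 64 of 162 values for single genes, while 98 moved. No region at any of the 9 genes passed the threshold under any window. A promoter window, 1000 bp upstream to 200 bp downstream, held 2 regions at 2 genes, none held by both replicates. Both shares became 100%, the fixed value of genes without a region, and 7 other ASE genes had a region. With 2000 bp upstream the shares were 85.8 and 67.1%, and with the window ended at the next gene 85.0 and 64.5%. The stronger 50% of the pooled list left 10 regions, with shares of 88.7 and 82.4%. Genes within 50% of the length gave 90.7 and 76.4%, and genes of the same chromosome gave 77.2% for strength. With the list of 1 replicate in place of the pooled list, the genes with a region were 4 to 6, the regions 9 to 18, the shares 94.2 to 100% and 74.3 to 100%, and the other ASE genes 11 to 18, the lower counts coming from replicate 3 left out. The shares of 100% came from the list of replicate 2, in which most of the 9 genes had no region. Of the 2 regions held by both at lsy-22, 1 remained under each stricter rule. These were replicate summits within 100 bp of the pooled summit, an overlap of 50% and equal numbers of replicate regions. No paired analysis was possible because there is a single group. Read depth, which limits what either list can show, is not given in the sources used here.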

Other observations

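The long gaps of the pooled list differ in the kind of DNA they cover. The longest, 227.5 kb at chrV:2344661-2572173, covers 50 protein-coding genes, among them many srd and str chemoreceptor genes, and 4.55% of its 32 bp words occur once in the genome. The next, 92.2 kb at chrV:8806962-8899192, covers 26 genes that include clusters of histone genes, with 6.06% of words occurring once. Of the 8 longest gaps, that at lsy-27 and the 8th, 51.1 kb at chrIV:3926247-3977297, have the highest shares of words that occur once, 90.9 and 90.2%, and the other 6 have at most 60.4%. The 8th covers 12 protein-coding genes, 10 of them C-type lectin genes of the clec family. Replicate 2 had 2 summits and replicate 3 had 2 within it, and they had 3 and 1 within the gap at lsy-27.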
